A study of Rattus norvegicus with 2 samples.

Results

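Retinal ganglion cell identity genes are genes whose RNA or protein is used to recognise the output neurons of the retina. The 10 members, Rbpms, Pou4f1, Pou4f2, Pou4f3, Thy1, Sncg, Slc17a6, Isl1, Atoh7 and Opn4, were chosen by gene symbol, and each matched 1 of the 32662 genes in the expression table. RNA was sequenced from whole retinas of Long-Evans rats aged 2 months, after removal of ribosomal RNA. CTRL is the library of a retina given a sham procedure. IR12 is that of a retina whose blood supply was stopped (ischemia) and then restored (reperfusion), with 12 hours between its return and collection. Each group has 1 library, so no difference given here has a replicate check. Gene expression was given as FPKM, reads scaled to transcript length and to mapped reads, and the changes are log2 ratios of FPKM plus 1, IR12 over CTRL, so that the change of a gene with low values appears smaller than it is. The FPKM steps between low genes showed that 1 read was worth 1.71 times as much FPKM in CTRL as in IR12, so the values of IR12 rest on more reads.

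Ganglion cells collect the signals of bipolar and amacrine cells and send them through the optic nerve to the brain. During development Atoh7 makes progenitors competent to become ganglion cells, and Isl1 and the POU domain factors Pou4f1, Pou4f2 and Pou4f3 then direct their differentiation and the growth of their axons. Adult ganglion cells are recognised by the RNA-binding protein Rbpms, the surface protein Thy1, gamma-synuclein (Sncg) and the vesicular glutamate transporter Slc17a6, and a small class of them senses light by melanopsin, the product of Opn4.

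With FPKM as deposited and no pseudocount, the POU domain factors had the largest ratios between the libraries among the members, and all were low. On the TPM scale, on which the FPKM of both libraries sum to the same total, this order did not hold, and with the pseudocount of 1 the log2 ratio of Rbpms (0.88) was larger in size than that of any of them. Pou4f2 (rn6, chromosome 19, 33160180 to 33163821) had an FPKM of 3.41 in CTRL against 1.06 in IR12, for a log2 ratio of -1.10. Pou4f3 (chromosome 18, 36713869 to 36716461) had 1.85 in CTRL against 0.679 in IR12, for a log2 ratio of -0.76. Pou4f1 (chromosome 15, 88620470 to 88622413) had 0.245 in CTRL against 0.0359 in IR12, for a log2 ratio of -0.27. All 3 factors thus had a lower FPKM in IR12, and they kept this direction under every scaling tried. The largest shift among these scalings was 0.65 on the log2 scale. It is smaller in size than the log2 ratio of each factor without a pseudocount, -1.445 or below, so none could have reversed the direction. Without a pseudocount the FPKM of CTRL was 3.21 times that of IR12 for Pou4f2, 2.72 times for Pou4f3 and 6.83 times for Pou4f1. Pou4f1, a widely used ganglion cell marker, was the lowest member above 0 in both libraries, at percentile 13.2 of the genes above 0 in CTRL and percentile 4.06 in IR12. In bulk tissue, fewer cells of a type and less RNA per cell cannot be told apart.

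The low values of the POU domain factors allowed the number of reads behind them to be sought, a step chosen after seeing the data. The ratio of the 2 FPKM values, divided by 1.71 before rounding, should be a ratio of whole reads where a gene has 1 transcript form, and pairs were accepted within 0.002%. Pou4f3 was met by 1 pair, 59 reads in CTRL against 37 in IR12, and Pou4f1 by 4 reads in CTRL against 1 in IR12. Pou4f2 was met by 79 and 42 reads and also by 158 and 84, and at its length any ratio would meet 0.23 pairs on average, against 0.038 for Pou4f3, so its reads are less certain. With FPKM as deposited, the level in IR12 was 0.367 times that in CTRL for Pou4f3 (exact 95% interval 0.237 to 0.563) and 0.311 times for Pou4f2 with the smaller pair (0.209 to 0.458). For Pou4f1 it was 0.146 times, with an interval from 0.00297 to 1.48 that includes a ratio of 1, so no difference in Pou4f1 was detectable at this depth. These intervals are Clopper-Pearson intervals of the share of reads and cover counting error only, not variation between animals. Whether the deposited FPKM had been scaled between the libraries was not settled, and any such scaling would be part of the 1.71. The TPM scale raises each of these ratios by 0.65 on the log2 scale. For Opn4, 10 pairs met the ratio, and no reads were taken from it.

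The 250 bases before the start of each POU domain gene are shown because these 3 related genes all had a lower FPKM in IR12, although for Pou4f1 no difference was detectable. They come from RefSeq on GRCr8, a later build than the rn6 loci above, and are written 5′ to 3′ on the strand of the gene, with capitals marking the E-box, CANNTG, the motif bound by basic helix-loop-helix factors, the class to which Atoh7 belongs.
Pou4f1 (chr15:87674644-87674893, minus strand): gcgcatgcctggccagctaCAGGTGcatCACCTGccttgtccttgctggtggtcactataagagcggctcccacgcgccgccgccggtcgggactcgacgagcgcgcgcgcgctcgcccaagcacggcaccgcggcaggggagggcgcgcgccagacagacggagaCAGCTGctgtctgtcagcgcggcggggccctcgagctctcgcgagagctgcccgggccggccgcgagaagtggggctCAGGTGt
Pou4f2 (chr19:46390708-46390957, plus strand): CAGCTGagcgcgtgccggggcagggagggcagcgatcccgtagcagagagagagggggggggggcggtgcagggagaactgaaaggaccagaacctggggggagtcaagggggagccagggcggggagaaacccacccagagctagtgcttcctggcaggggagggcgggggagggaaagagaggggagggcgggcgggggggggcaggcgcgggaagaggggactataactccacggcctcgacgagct
Pou4f3 (chr18:34640941-34641190, plus strand): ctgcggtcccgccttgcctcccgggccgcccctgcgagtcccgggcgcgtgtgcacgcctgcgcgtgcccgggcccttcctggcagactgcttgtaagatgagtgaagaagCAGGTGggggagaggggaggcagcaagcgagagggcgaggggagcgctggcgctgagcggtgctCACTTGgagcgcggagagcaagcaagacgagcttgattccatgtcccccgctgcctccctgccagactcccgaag
The window held 4 E-boxes in Pou4f1, 1 in Pou4f2 and 2 in Pou4f3, beside a median of 1 and a share of 65.5% with at least 1 among the windows of the same length of all 33469 promoters. The form CAGCTG, which is also counted as an E-box, occurred in the windows of Pou4f1, Pou4f2 and Slc17a6 and in 12.0% of all promoters. The homeodomain motifs TAATTA, in 4.86% of all promoters, and ATTA, in 57.0% of them and contained in TAATTA, were in none of the 3 windows on either strand, and of the other members with a promoter Slc17a6, Isl1 and Opn4 held ATTA. A promoter was matched for 8 of the 10 members, with none for Rbpms and Thy1. Of the other 5, Slc17a6 held 2 E-boxes, Isl1, Atoh7 and Opn4 held 1 each, and Sncg held 0. The windows of the POU domain genes were rich in G and C, with 72.4% in Pou4f1, 70.4% in Pou4f2 and 69.2% in Pou4f3, beside a median of 51.2% over all promoters. These matches describe the sequence and were not tested as binding sites.

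Isl1, a LIM homeodomain factor (chromosome 2, 48487736 to 48501436), had an FPKM of 66.1 in CTRL against 40.2 in IR12, for a log2 ratio of -0.70, or -0.069 on the TPM scale. Isl1 is also made by ON bipolar cells and cholinergic (starburst) amacrine cells, so its level does not belong to ganglion cells alone. Summed levels of lists are given as deposited. The TPM scale raises each sum of IR12 relative to that of CTRL by 0.65 on the log2 scale. This turns the lower sums of the bipolar, amacrine, horizontal, rod, cone, Mueller glia and pan-ganglion-cell lists into higher ones. The bipolar cell list had 10 of 12 genes lower in IR12, with a summed FPKM of 633 in CTRL against 483 in IR12 and a median log2 ratio of -0.40, or 0.20 on the TPM scale. Trpm1, the transduction channel of ON bipolar cells, was its most abundant gene, with 189 in CTRL against 159 in IR12, and the bipolar factor Otx2 was listed at 0 in both libraries. All 5 matched genes of the starburst list were lower, with a summed FPKM of 47.2 in CTRL against 29.7 in IR12. Slitrk6 was the most abundant of these, with 17.6 in CTRL against 12.7 in IR12. The choline transporter Slc5a7 had 7.43 and 2.01, for a log2 ratio of -1.48 that became -0.96 on the TPM scale and so was under 2-fold there. The part of these cell types in the lower Isl1 was not tested. Atoh7 (chromosome 20, 27082961 to 27083410) was listed at 0 in both libraries. Its listed locus is 450 bp long, and since Hprt1, a gene that every cell uses, was also listed at 0 in both, the 0 does not show that Atoh7 was silent.

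The general markers of adult ganglion cells did not all differ in the same direction between the libraries as deposited, while all 4 were higher in IR12 with FPKM on the TPM scale. Sncg, a small protein of axons and somata, was the member with the highest level, with an FPKM of 79.7 in CTRL against 80.7 in IR12. Its log2 ratio was 0.017 as deposited, -0.0079 after centring on the median gene and 0.66 on the TPM scale. Thy1, a glycoprotein of the neuronal surface, had 51.3 in CTRL against 45.7 in IR12, for a log2 ratio of -0.16, which became 0.47 on the TPM scale. Slc17a6, which fills synaptic vesicles with glutamate, had 39.0 in CTRL against 27.4 in IR12, for a log2 ratio of -0.49, which became 0.14 on the TPM scale. Rbpms, which binds RNA and marks nearly all ganglion cells, had 5.69 in CTRL against 7.46 in IR12, for a log2 ratio of 0.34. It was higher in IR12 under every scaling tried, but none lowers IR12 by more than 0.094 on the log2 scale, so none could have reversed this. Its paralog Rbpms2, with almost the same level in CTRL at 5.68, had 2.92 in IR12, for a log2 ratio of -0.77. The paralogs were thus nearly equal in CTRL, while Rbpms was 2.56 times Rbpms2 in IR12, a comparison within each library that no scaling between them can move, made after the values were seen.

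Thy1 can also be made by fibroblasts and, in some species, by T cells. The T cell receptor genes Cd3e and Cd3d were listed at 0 in CTRL and had 0.0922 and 0.0733 in IR12, and the 6 T cell genes summed to 1.43 in CTRL against 1.83 in IR12, most of it from Cd4. The fibroblast list summed to 8.55 in CTRL against 2.42 in IR12, of which Pdgfra, a receptor that other cells also make, gave 7.28 and 1.88. The collagen gene Col1a2 was listed at 0 in both libraries, which, as for Atoh7, does not show that it was silent, and Col1a1 had 0.0693 in CTRL against 0.00676 in IR12. The part of T cells and fibroblasts in the value of Thy1 was not tested. Rbpms is also made by vascular smooth muscle and pericytes. The 7 matched genes of the endothelial and pericyte list summed to 168 in CTRL against 126 in IR12, with a log2 ratio of the sums of -0.41 that became 0.23 on the TPM scale, and their median went from -0.018 to 0.25. Kdr, an endothelial receptor, was the most abundant and gave most of both sums, with 108 in CTRL against 66.8 in IR12. Flt1 had 12.3 and 32.3, and the pericyte gene Rgs5 had 38.6 and 17.6. Of the 7 genes, 3 were higher in IR12 as deposited and 4 lower. The endothelial gene Cdh5, named after its value was seen, had 0.883 in CTRL against 1.63 in IR12. The part of vessels in the value of Rbpms was not tested.

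Opn4, the photopigment gene of the light-sensing ganglion cells (chromosome 16, 10943341 to 10952549), had an FPKM of 4.65 in CTRL against 3.07 in IR12, for a log2 ratio of -0.47, or 0.037 on the TPM scale. Melanopsin signals through the phospholipase Plcb4 and the channels Trpc6 and Trpc7, which are on the fixed list of subtype markers and were singled out after their values were seen. Plcb4 had 27.7 in CTRL against 20.1 in IR12, for a log2 ratio of -0.44, or 0.18 on the TPM scale. Trpc6 had 3.15 and 1.51, for a log2 ratio of -0.72, or -0.27, and Trpc7 had 2.91 and 1.82, for a log2 ratio of -0.47, or -0.018. Eomes, a transcription factor of the same cells, had 1.36 in CTRL against 1.41 in IR12, for a log2 ratio of 0.032 that became -0.022 with the same sum without small non-coding RNAs, -0.013 with the same upper quartile and 0.39 on the TPM scale.

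**Figure D1:**
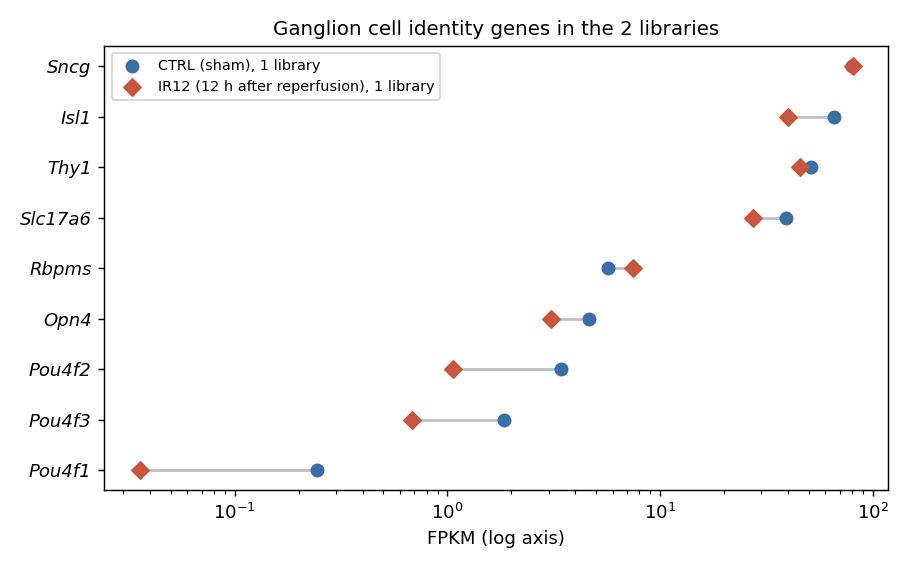
FPKM (horizontal, log axis) of the 9 members above 0, ordered by their level in CTRL, with 1 circle for the CTRL library and 1 diamond for the IR12 library. The POU domain factors lie at the low end and are the farthest apart, Sncg, Isl1 and Thy1 lie at the high end, Isl1 with 66.1 against 40.2 and the others with nearly the same value in both libraries, and Atoh7, listed at 0, is not drawn.

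Over all 10 members, 1 was at least 2-fold lower in IR12, beside 832 of 13599 genes (6.12%) with an FPKM of at least 1 in at least 1 library, and 0 were at least 2-fold higher, beside 892 genes (6.56%). Of the members, 8 were among those 13599 genes, Pou4f1 and Atoh7 were not, and Pou4f3 was there through CTRL alone. A count of 1 of 10 is near the background share, and on the TPM scale 0 members were at least 2-fold lower, with Pou4f2 at -0.65. The median log2 ratio of the members was -0.37, beside 0.022 over the 13599 genes, or -0.47 without Atoh7, an alternative chosen after seeing the data. As deposited, 7 members were lower in IR12 and 2 higher, and on the TPM scale 4 were lower and 5 higher. The TPM scale moves the median of all tested genes to 0.59, because small non-coding RNAs held 67.9% of the summed FPKM in CTRL and 46.3% in IR12. Relative to the median of the tested genes, 8 of the 9 members above 0 were below it as deposited and 7 on the TPM scale, and the median of the members lay -0.39 and -0.57 from it. The split of all genes past 2-fold also moved, from 892 higher and 832 lower to 2817 and 436 on that scale. With a pseudocount of 0.1, 3 members were at least 2-fold lower, Pou4f1, Pou4f2 and Pou4f3, beside 8.65% of the tested genes, and 0 were higher, beside 8.59%. Gapdh, a reference gene, had an FPKM of 716 in CTRL against 690.1 in IR12, and Actb had 259.9 and 537.

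**Figure D2:**
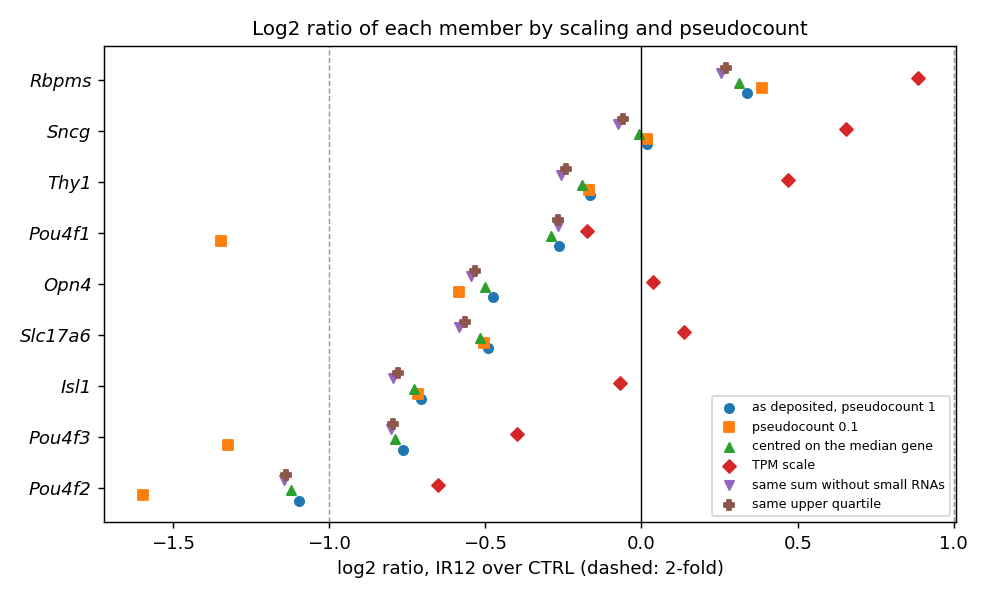
Log2 ratio of IR12 over CTRL (horizontal) for the 9 members above 0, with 1 marker for each scaling or pseudocount and dashed lines at 2-fold. The 3 POU domain factors are below 0 under all 6 settings and pass -1 together with the pseudocount of 0.1 only, Rbpms is above 0 under all 6, and the TPM scale moves Thy1, Slc17a6 and Opn4 from below to above 0.

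The other transcription factors of ganglion cells had 22 of 29 matched genes lower in IR12. Their median log2 ratio was -0.17 as deposited and 0.049 on the TPM scale. Of the 29, 16 were among the 13599 tested genes. A gene under an FPKM of 1 in both libraries cannot pass 2-fold with the pseudocount of 1. As deposited, 1 gene was at least 2-fold lower and 1 at least 2-fold higher, beside 6.12% and 6.56% of the tested genes. The TPM scale gave 0 lower and 1 higher, beside 436 and 2817 of the 13599 tested genes. With the pseudocount of 0.1, 2 were lower and 1 higher, beside 8.65% and 8.59%. Foxp2, 1 of the lower genes, was not among the tested genes. Myt1, a zinc finger factor of neurons, was the most abundant, with an FPKM of 34.4 in CTRL against 24.1 in IR12. The gene past 2-fold on the higher side was Lmo2, a LIM-only factor also made by endothelial and blood cells, with 3.28 in CTRL against 21.5 in IR12, for a log2 ratio of 2.39. The gene on the lower side was Zic1, a zinc finger factor named after its value was seen, with 2.27 and 0.553, for a log2 ratio of -1.08 that became -0.70 on the TPM scale and so was under 2-fold there. Ebf3, a factor of ganglion and amacrine cells also named after its value was seen, had 6.66 in CTRL against 3.37 in IR12. Isl2, a relative of Isl1 made by a subset of ganglion cells and named for that reason, had 0.239 in CTRL and 0.175 in IR12.

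The other pan-ganglion-cell, axonal and synaptic genes had 23 of 26 lower in IR12, a median log2 ratio of -0.48 (but 0.092 on the TPM scale) and a summed FPKM of 1588 in CTRL against 1406 in IR12. Of the 26 genes, 25 were among the tested genes. On this list 0 were at least 2-fold lower and 1 was at least 2-fold higher, beside 6.12% and 6.56% of the tested genes. The TPM scale gave 0 lower and 3 higher, beside 436 and 2817 of the 13599 tested genes. With the pseudocount of 0.1, 2 were lower and 1 higher, beside 8.65% and 8.59%. Syt1, the calcium sensor of transmitter release in neurons, was the most abundant, with 459 in CTRL against 371 in IR12. The gene at least 2-fold higher was Gap43, a growth cone protein, with 20.1 in CTRL against 71.4 in IR12, for a log2 ratio of 1.78. Nefl, the light neurofilament chain of ganglion cell axons, had 132 in CTRL against 88.8 in IR12, and the nicotinic receptor subunit Chrnb3 had 29.9 and 14.8, both named after their values were seen. The axonal genes therefore held values on both sides of 0, as the members did.

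The subtype markers had 19 of 23 matched genes lower in IR12 and their median log2 ratio was -0.44 (but 0.057 on the TPM scale). Of the 23 genes, 19 were among the tested genes. On this list 3 were at least 2-fold lower and 3 at least 2-fold higher, beside 6.12% and 6.56% of the tested genes. The TPM scale gave 2 lower and 3 higher, beside 436 and 2817 of the 13599 tested genes. With the pseudocount of 0.1, 4 were lower and 3 higher, beside 8.65% and 8.59%. Calb2, a calcium-binding protein of ganglion and amacrine cells, was the most abundant, with an FPKM of 275 in CTRL against 148 in IR12. Penk, the precursor of enkephalins, had 45.4 in CTRL against 13.3 in IR12, for a log2 ratio of -1.70. Igfbp5, an insulin-like growth factor binding protein, had 26.1 in CTRL against 6.89 in IR12, for a log2 ratio of -1.78. Spp1, osteopontin, a marker of alpha ganglion cells that leukocytes also make, had 3.80 in CTRL against 15.3 in IR12, for a log2 ratio of 1.76. Kcng4, a potassium channel subunit of alpha ganglion cells, had 0.706 in CTRL against 8.85 in IR12, for a log2 ratio of 2.53. Col25a1 and Fst, under the level set for naming genes, were the other genes past 2-fold, with 4.10 and 0.0726 in CTRL and 1.23 and 1.49 in IR12. On the TPM scale Col25a1 was under 2-fold, with a log2 ratio of -0.73. Pvalb and Tpbg, also on this list and named after their values were seen, were lower in IR12 as deposited. Pvalb had 124.2 in CTRL against 82.5 in IR12, and Tpbg had 8.79 against 5.42. Which cells made them was not tested.

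Genes known to rise in injured ganglion cells were on the other side, with 15 of 16 higher in IR12, a median log2 ratio of 0.59 and a summed FPKM of 135 in CTRL against 372 in IR12. Of the 16 genes, 13 were among the tested genes. On this list 4 genes were at least 2-fold higher, beside 6.56% of the tested genes, and 0 at least 2-fold lower. On the TPM scale 7 were at least 2-fold higher, beside 2817 of the 13599 tested genes, and the list median was 0.87, beside 0.59 over those genes. The stress-induced factor Atf3 had an FPKM of 2.62 in CTRL against 94.5 in IR12, and the receptor Tnfrsf12a had 1.96 in CTRL against 37.8 in IR12. The others were Gap43, given above, and the cytokine Csf1, with 1.99 in CTRL against 7.47 in IR12. Ddit3, a factor of the unfolded protein response, was the most abundant by the sum of both libraries, with 37.1 in CTRL against 71.9 in IR12. Many of these genes are made by other injured cells too. The leukocyte and microglia list summed to 21.8 in CTRL against 138 in IR12, and it had a median log2 ratio of 1.63. On this list 6 of 10 genes were at least 2-fold higher, beside 6.56% of the tested genes. Its most abundant gene, the lysozyme gene Lyz2, had 9.73 in CTRL against 76.9 in IR12, and the neutrophil genes S100a9 and S100a8 had 0.199 and 0.0 in CTRL and 23.0 and 12.8 in IR12. The microglia genes Cx3cr1, Csf1r and Aif1, named after their values were seen, differed less. Cx3cr1 had 1.16 in CTRL against 0.676 in IR12, Csf1r had 3.61 against 3.71, and Aif1 had 5.42 against 7.36. The part of leukocytes and microglia in the injury genes and in Spp1 was not tested.

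**Figure D3:**
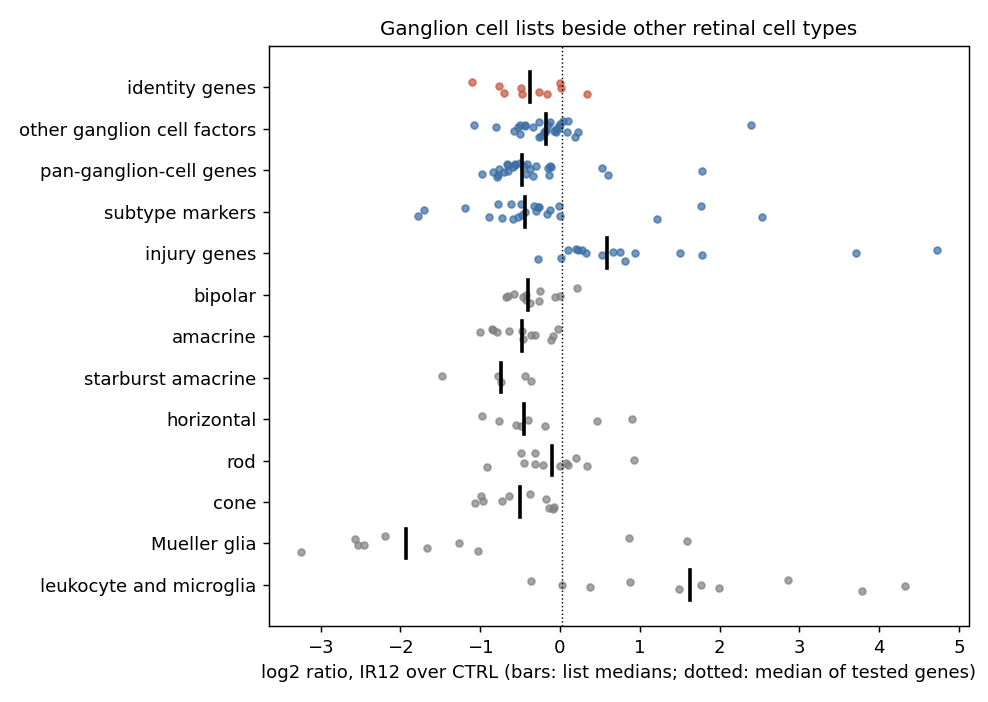
Log2 ratio of IR12 over CTRL (horizontal) of each matched gene, 1 row of points per list, with black bars at the list medians and a dotted line at the median of 0.022 over the 13599 tested genes. The identity genes have a median of -0.37 as deposited, with Atoh7 drawn at 0, close to the bipolar, amacrine and horizontal cell lists, while Mueller glia are lower and the injury and leukocyte lists higher. The median of the identity genes becomes 0.018 with FPKM on the TPM scale.

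Lists of other neurons of the inner retina also had medians below 0 as deposited. The median log2 ratio was -0.47 for the 12 amacrine cell genes, -0.45 for the 8 horizontal cell genes and -0.75 for the starburst genes, beside -0.37 for the members, and on the TPM scale these medians became 0.015, 0.025, -0.26 and 0.018. The amacrine list summed to an FPKM of 458 in CTRL against 304 in IR12, and Pax6, a factor of amacrine and ganglion cells and its most abundant gene, had 165 in CTRL against 105 in IR12. The horizontal list summed to 262 in CTRL against 234 in IR12, and Tpm3, the most abundant by the sum of both libraries but below Sept4 (77.8) and Calb1 (74.2) in CTRL, had 59.4 and 112. Among photoreceptors, the median was -0.51 for cones and -0.10 for rods, or 0.14 and 0.53 on the TPM scale. The rod transducin subunit Gngt1 and the cone transducin Gnat2 led these lists, with 12096 and 179 in CTRL and 8644 and 138 in IR12. The cone opsin Opn1sw had 6.68 in CTRL against 2.66 in IR12, for a log2 ratio of -1.07 that became -0.54 on the TPM scale and so was under 2-fold there. A lower median was therefore not particular to the ganglion cell identity genes in these libraries.

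Among the glial and non-neuronal lists, the median log2 ratio of astrocytes was -0.44, or -0.27 on the TPM scale, that of lens -2.71, or -2.11, and that of the pigment epithelium -0.033, or 0.27. Mueller glia had a median log2 ratio of -1.93, or -1.29 on the TPM scale, and a summed FPKM of 1862 in CTRL against 1234 in IR12, with Aqp4, a water channel, at 48.0 and 4.16, glutamine synthetase (Glul) at 754 and 126, and the carbonic anhydrase Car14 at 72.9 and 11.8. Clusterin (Clu), their most abundant gene by the sum of both libraries but below Glul in CTRL, went the other way, with 223 in CTRL against 673 in IR12. The astrocyte list summed to 71.0 in CTRL against 34.8 in IR12, led in CTRL and by the sum of both libraries by Gja1 with 40.7 and 6.63, while Gfap had 2.95 and 21.9 and S100b had 25.8 and 5.81. Among markers of oligodendrocytes, which would mark myelinated optic nerve, Olig1 was listed at 0 in both libraries. The lens list summed to 2957 in CTRL against 353 in IR12, so CTRL held more lens transcripts, with Cryba1 at 1614 and 196.3, Cryaa at 1118 and 124 and Crygs at 194.0 and 28.3. The part of lens tissue in the values of the members was not tested. The pigment epithelium list summed to 94.3 in CTRL against 121 in IR12, led by Ttr with 61.8 and 87.4, and Rpe65 had 11.1 and 4.88. The progenitor list summed to 329 in CTRL against 350.4 in IR12, led by Neurod4 with 195.3 and 163, with Hes1 at 17.1 and 4.10, Ccnd1 at 3.90 and 36.3 and Neurog2, like Atoh7, listed at 0 in both. The reference list summed to 3640 in CTRL against 5320 in IR12, led by Eef1a1 with 930.3 and 2218, and B2m had 65.7 and 188.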

How the data were processed

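The authors deposited gene expression as FPKM for both retina libraries, 1 column each, with loci on rn6. The submitters' processing notes list STAR 2.5.2b and Cuffdiff 2.2.0 without saying which made the FPKM. Whether the FPKM were scaled between the libraries was not settled. The labels name a stranded total RNA kit whereas the series design has a stranded mRNA kit, and rRNA was removed in either case. Locus starts, which are counted from 0 in the table, are printed with 1 added. Where a symbol had several rows (Klf7), the row with the highest sum was used.

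Log2 ratios used a pseudocount of 1, and genes with an FPKM of at least 1 in at least 1 library served as background. With 1 library per group no test between groups was run, and the exact intervals compare the reads of the 2 libraries for counting error only. Members and lists were chosen with earlier results of these data known. Named are all members, Gapdh, Actb, genes whose loci overlap a member (0 found) and, from each other list, the most abundant gene and those with an FPKM of at least 5 and a change of at least 2-fold (for other cell types the 3 largest). Other names were chosen after their values were seen. A result that this rule would name is not reported here.

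Relative depth was the commonest ratio of CTRL to IR12 among 249 genes under an FPKM of 0.2 with loci under 2500 bp, and 98.8% of them had a ratio of whole reads, with up to 10 in IR12, within 0.02%. The value of 1 read was fitted on olfactory receptor genes (7 in CTRL, 85 in IR12), with about 15400000 and 26300000 reads in the denominator. These steps were chosen after seeing the data. Alternatives were a pseudocount of 0.1, centring, 3 rescalings (TPM scale, the same sum without small non-coding RNAs, the same upper quartile), a minimum FPKM of 5 and none. Procedures were tested on simulated data, and the outcome is not reported here. Computations ran in Python 3.11.15 with pandas 2.3.3, numpy 2.4.6, scipy 1.17.1 (exact intervals) and matplotlib 3.10.9 (figures).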

Additional observations from a re-analysis of the deposited data

How the results depend on the processing

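No paired analysis was possible because each group has 1 library, and no replicate could be left out. A log2 ratio was read as moved when it changed sign, crossed 2-fold or shifted by more than 0.58 (1.5 times in the linear ratio), and a count when it changed by more than 1.5 times. Of 131 alternative values for 18 results, 112 did not move by this rule, although some of these could not have moved by construction. The TPM scale moved the largest number. On it the median log2 ratio was 0.018 for the identity genes, 0.049 for the other transcription factors, 0.092 for the pan-ganglion-cell genes and 0.057 for the subtype markers, 0 members were at least 2-fold lower, and 436 genes were at least 2-fold lower and 2817 higher. This follows from its construction, since it rescales both libraries and so raises all genes of IR12 relative to CTRL by 0.65 before the pseudocount. On it the log2 ratio of Pou4f2 was -0.65, under 2-fold. The pseudocount of 0.1 gave 3 members at least 2-fold lower, since a pseudocount of 1 outweighs values under 1. A minimum FPKM changes the background and not the values of members or lists, so for these it could not move a result and shows no stability. Leaving out genes at 0 in both libraries, chosen after seeing the data, moved no list median past these limits. Depth limits Pou4f1 most, with 4 reads in CTRL and 1 in IR12.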

Other observations

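Ratios between members within a library do not depend on how the libraries are scaled to each other. These pairs were chosen after their values were seen. The FPKM of Sncg was 23.4 times that of Pou4f2 in CTRL and 76.1 times in IR12. For Slc17a6 over Pou4f2 the ratio was 11.4 in CTRL and 25.9 in IR12, and for Sncg over Pou4f3 it was 43.1 and 119. Isl1 was above Thy1 in CTRL, where Thy1 over Isl1 was 0.777, and below it in IR12, where the ratio was 1.14. The members therefore did not differ between the libraries by 1 common factor.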
